A study of Mus musculus with 32 samples.

Results

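The 8 genes described here belong to the transforming growth factor beta (TGF-beta) pathway: the ligands Tgfb1, Tgfb2 and Tgfb3, the receptors Tgfbr1 and Tgfbr2, the signal carrier Smad3, the feedback inhibitor Smad7 and the target gene Tgfbi. They were chosen by name, with earlier results of these data known. All 8 were found among the 42524 genes of the count table. RNA was sequenced from the spinal cord of 32 mice, 4 in each of 8 groups that cross genotype (wildtype, written WT, or G93A), treatment (untreated or OKN007) and age (90 days or 155 days). G93A mice carry a human SOD1 transgene with the mutation that gives the line its name, on the C57BL/6J background, and are a model of amyotrophic lateral sclerosis in which motor neurons of the spinal cord are lost; the WT mice of the study were littermates without the transgene. The transgene is overexpressed from a high-copy insertion of the human gene, so that the model stands for mutant SOD1 and not for other forms of the disease. OKN007 is a nitrone compound, and the study set out to learn whether it alters the disease; no dose was assigned to the sequenced mice here. All 8 groups share the strain background and the tissue, and the study's experimental mice were mostly female.

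TGF-beta ligands are secreted in a latent form, bound to a propeptide and held on matrix or on the cell surface, and become active when integrins or proteases release them. An active ligand brings the type II receptor, Tgfbr2, to the type I receptor, Tgfbr1, which phosphorylates Smad2 and Smad3; these join Smad4 and act on target genes, while Smad7 blocks the receptor. In the central nervous system the pathway is known for keeping microglia in their resting state, for scar and matrix production by astrocytes and for effects on neuron survival.

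The promoters of the 4 genes with the largest rise in G93A mice are shown so that the sequence in front of genes that moved together can be compared. Each runs 5′ to 3′ over the 250 bases before the gene's annotated start, from RefSeq on GRCm38.p6, and lies outside the transcript of that start. Tgfb1 was taken from chr7:25686752-25687001 (plus strand), Tgfbr1 from chr4:47352972-47353221 (plus strand), Tgfbr2 from chr9:116175364-116175613 (minus strand) and Tgfbi from chr13:56609336-56609585 (plus strand). Capitals mark a match to 1 of 3 motifs searched on both strands: CAGACA, a Smad-binding element, TGANTCA, the AP-1 site, and GAGGAAG, the core bound by the myeloid factor PU.1.
Tgfb1: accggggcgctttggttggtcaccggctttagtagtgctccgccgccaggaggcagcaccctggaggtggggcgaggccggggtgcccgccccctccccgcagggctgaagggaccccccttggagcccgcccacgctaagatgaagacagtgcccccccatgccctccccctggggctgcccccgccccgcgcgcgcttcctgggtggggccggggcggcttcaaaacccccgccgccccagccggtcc
Tgfbr1: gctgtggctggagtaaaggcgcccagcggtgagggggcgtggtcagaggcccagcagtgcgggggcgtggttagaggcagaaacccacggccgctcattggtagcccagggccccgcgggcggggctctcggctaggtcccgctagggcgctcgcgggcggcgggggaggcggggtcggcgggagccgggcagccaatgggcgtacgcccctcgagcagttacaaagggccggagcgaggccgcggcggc
Tgfbr2: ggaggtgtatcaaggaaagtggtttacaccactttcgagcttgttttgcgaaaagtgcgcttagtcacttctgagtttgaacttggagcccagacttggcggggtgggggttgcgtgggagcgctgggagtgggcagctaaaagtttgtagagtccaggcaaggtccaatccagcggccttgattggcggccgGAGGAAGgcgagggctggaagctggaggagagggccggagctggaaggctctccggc
Tgfbi: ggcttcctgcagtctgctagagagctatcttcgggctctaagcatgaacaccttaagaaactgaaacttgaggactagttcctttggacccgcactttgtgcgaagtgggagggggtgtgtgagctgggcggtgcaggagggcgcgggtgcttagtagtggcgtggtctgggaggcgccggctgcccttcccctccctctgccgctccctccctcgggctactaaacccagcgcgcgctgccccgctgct

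Of these 4 windows, only that of Tgfbr2 held a match, GAGGAAG, whose first base lay 57 bases before the start. Across the 32851 promoters of the table, 10.6% held GAGGAAG, 17.1% held CAGACA and 6.75% held TGANTCA in a window of this length. The search covered promoters of 6 of the 8 genes, 7 promoters in all, with none of Tgfb3 or Smad7 among them. Whether RefSeq holds a promoter of Smad7 was not established, because entries on its chromosome were left out of the search. Tgfb2 held CAGACA at 204 bases before its start, Smad3 held none of the motifs, and a second start of Tgfbr1 held CAGACA at 203 bases and GAGGAAG at 95 bases. The promoters of Tgfb1 and Tgfbr1 were rich in G and C, at 75.2% and 74.8%, against a median of 52.4% over all promoters. A match describes letters only, and no binding was measured.

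The libraries held 19701722 to 30138257 reads on genes, and the lowest count of any of the 8 genes in any mouse was 94, well above the floor of 3 counts (0.152 CPM in the smallest library; floors and intervals on counts cover counting error only). CPM here means counts scaled to library size, with edgeR's TMM factors, and SE the standard error of a log2 fold change. All 8 genes passed the filter on low counts at both ages, where 18899 genes (90 days) and 18675 genes (155 days) were tested. A gene is called where edgeR's quasi-likelihood test gave a p under 0.05 after Benjamini-Hochberg adjustment over all genes tested. In a single WT untreated mouse at 90 days (replicate 3), markers of Schwann cells summed to 1652 CPM, against a median of 108 CPM in its group. In a G93A untreated mouse of that age (replicate 10) they summed to 388 CPM, beside 101, 113 and 122 CPM in the others of its group; the age comparisons of Tgfbi that leaving out either mouse moved are also given without it. Genes of the caudal Hox code, which mark position along the body axis, varied between mice and were lower in G93A mice at 155 days; the 8 genes are therefore also given with a score of these genes as a covariate.

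At 155 days the untreated G93A cord held more RNA of 6 of the 8 genes: both receptors, the ligands Tgfb1 and Tgfb2, Smad3 and Tgfbi. Tgfb1 rose most, 4.45-fold, followed by Tgfbr1 at 3.08-fold and Tgfbr2 at 3.06-fold. Tgfb3 and the inhibitor Smad7 did not pass the test. Thus 6 of 8 were called higher and 0 lower, where 21.3% of all genes tested were called higher and 18.2% lower; the median log2 fold change of the 8 genes was 1.12, against 0.00015 over all genes tested. In the same 6 genes every G93A mouse lay above every WT mouse, which held for 17.4% of all genes. The genes were chosen with earlier results of these data known. These shares therefore describe the 8 genes and are no unbiased test of the pathway.

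**Figure D1:**
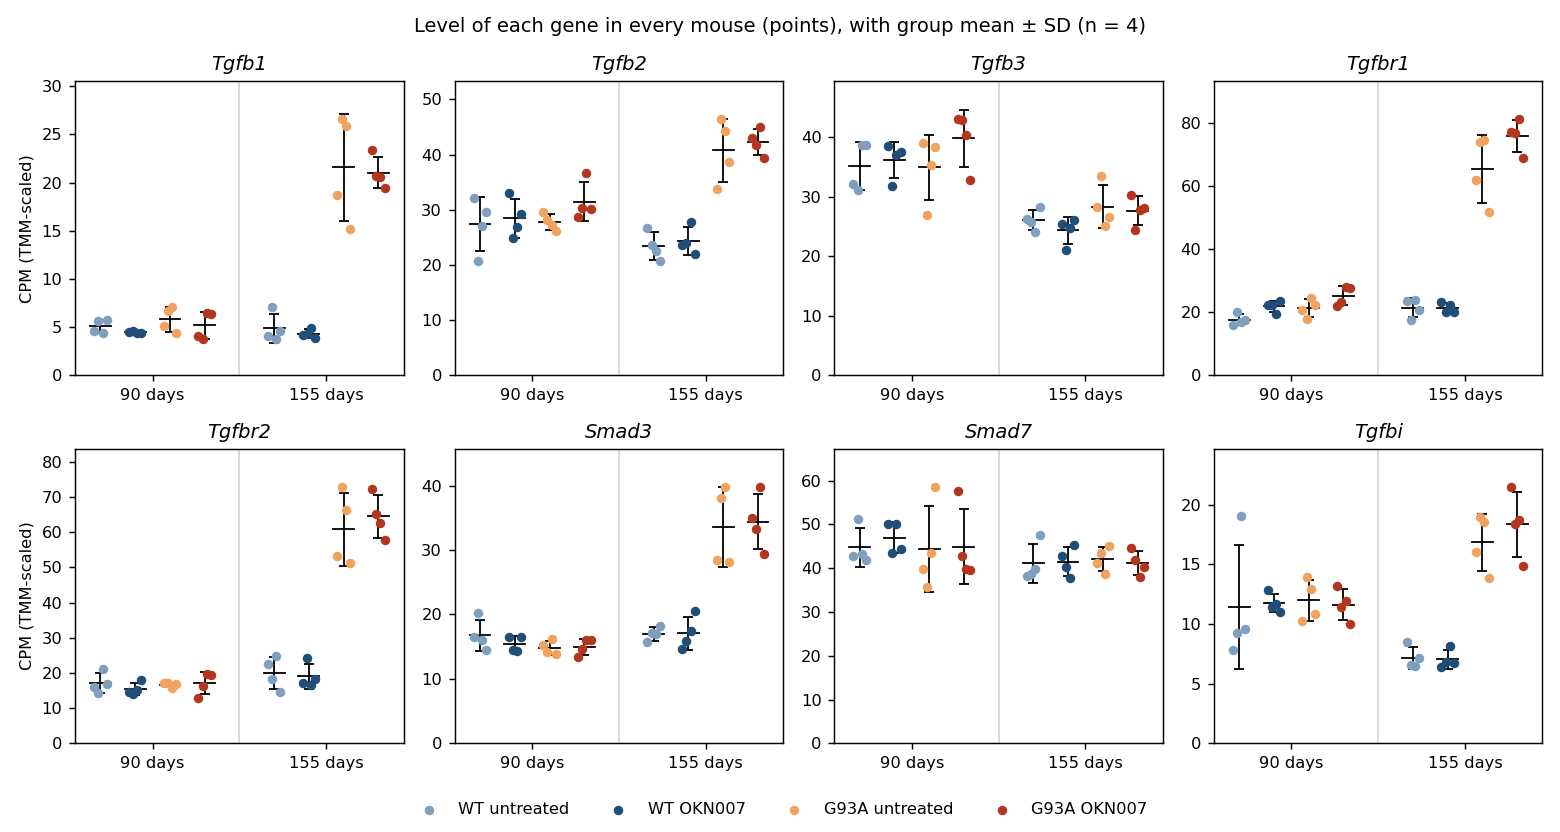
Level of each of the 8 genes in every mouse, in CPM on linear axes that start at 0, by age and group; points are mice, and bars give the group mean ± SD (n = 4). At 155 days both G93A groups lie above both WT groups in Tgfb1, Tgfb2, Tgfbr1, Tgfbr2, Smad3 and Tgfbi, whereas the groups overlap in Tgfb3 and Smad7.

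Tgfb1, the ligand made mainly by microglia in the central nervous system, was at 4.10, 7.11, 3.82 and 4.59 CPM in the 4 WT untreated mice and at 18.7, 26.6, 25.8 and 15.2 CPM in the 4 G93A untreated mice at 155 days. The lowest G93A mouse stood above the highest WT mouse by more than the whole WT range. The log2 fold change was 2.16 (SE 0.18, adjusted p = 3.01e-08).

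Tgfb2, a ligand of neurons and astrocytes, was at 26.8, 23.6, 22.6 and 20.8 CPM in WT untreated mice and at 33.8, 46.4, 44.3 and 38.6 CPM in G93A untreated mice. The groups were apart, though by less than for Tgfb1, with a log2 fold change of 0.81 (SE 0.10, adjusted p = 4.23e-06). Tgfb3, the remaining ligand, was at 26.3, 25.7, 24.1 and 28.2 CPM in WT untreated mice and at 28.2, 33.4, 25.0 and 26.6 CPM in G93A untreated mice. The Tgfb3 ranges overlapped, and the difference of 0.13 on the log2 scale (95% interval -0.067 to 0.33) did not pass the test (adjusted p = 0.289). Tgfb2 and Tgfb3 each share exon bases with transcripts annotated on the opposite strand, 124 bases for Tgfb2 with Gm29491, and 163 and 257 bases for Tgfb3 with Gm37804 and Gm48008; how the counting treated strand is not given in the sources used here, so that reads of these stretches could belong to either gene.

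Tgfbr1, the type I receptor that carries the kinase for Smad3, was at 23.7, 17.5, 23.9 and 20.7 CPM in WT untreated mice and at 62.0, 74.0, 74.6 and 51.8 CPM in G93A untreated mice. Each G93A mouse was above the highest WT mouse by more than the WT range. Its log2 fold change was 1.62 (SE 0.11, adjusted p = 1.83e-09), the smallest adjusted p of the 8 genes.

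Tgfbr2, the type II receptor that binds the ligand, was at 22.4, 18.3, 24.9 and 14.6 CPM in WT untreated mice and at 53.3, 72.8, 66.3 and 51.3 CPM in G93A untreated mice. As for Tgfbr1, each G93A mouse was above the highest WT mouse by more than the WT range, and the log2 fold change was 1.61 (SE 0.16, adjusted p = 1.62e-07).

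Smad3, which carries the signal to the nucleus, was at 15.7, 17.1, 16.9 and 18.2 CPM in WT untreated mice and at 28.4, 38.1, 39.7 and 28.1 CPM in G93A untreated mice, a log2 fold change of 0.995 (SE 0.13, adjusted p = 4.99e-06). Smad7, which acts against the receptor and is itself induced by TGF-beta, was at 38.1, 38.7, 39.9 and 47.6 CPM in WT untreated mice and at 41.2, 43.6, 38.5 and 45.0 CPM in G93A untreated mice. Smad3 was higher in every G93A mouse than in any WT mouse, while the Smad7 groups overlapped. The Smad7 difference was 0.049 on the log2 scale (95% interval -0.13 to 0.22, adjusted p = 0.677). Tgfbi, a secreted matrix protein first found as a gene induced by TGF-beta, was at 8.46, 6.55, 6.49 and 7.18 CPM in WT untreated mice and at 16.01, 19.0, 18.5 and 13.8 CPM in G93A untreated mice. Its groups did not overlap, and the log2 fold change was 1.24 (SE 0.13, adjusted p = 5.41e-07).

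Under OKN007, compared in 8 other mice of the same age, the same 6 genes were called higher in G93A mice, where 23.3% of all genes tested were called higher, and the same 6 again had groups that did not overlap (22.6% of all genes). Tgfb1 was at 4.23, 4.32, 4.96 and 3.85 CPM in WT OKN007 mice and at 23.3, 20.7, 20.6 and 19.5 CPM in G93A OKN007 mice, a log2 fold change of 2.31 (SE 0.19, adjusted p = 1.04e-08). Tgfbr1 was at 23.4, 20.2, 22.4 and 20.1 CPM in WT OKN007 mice and at 77.1, 77.0, 81.2 and 69.1 CPM in G93A OKN007 mice, a log2 fold change of 1.86 (SE 0.11, adjusted p = 2.68e-10). Both genes were as clearly apart as in untreated mice. The log2 fold changes of the others were 0.83 for Tgfb2, 1.79 for Tgfbr2, 1.04 for Smad3 and 1.42 for Tgfbi. Tgfb3 was at 0.22 (adjusted p = 0.0737) and Smad7 at 0.026 (adjusted p = 0.836), neither past the test.

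When the genotypes were averaged over both treatments at 155 days, 7 of the 8 genes were called, all higher, where 28.8% of all genes tested were called higher. The addition was Tgfb3, at a log2 fold change of 0.17 (SE 0.067, adjusted p = 0.0341). This call was lost when the caudal Hox score entered the fit, where the value was 0.0064 (adjusted p = 0.970), and with all 32 mice in one fit (adjusted p = 0.112). It was also lost in 7 of the 16 fits that left out a mouse, with adjusted p from 0.0506 to 0.0909: WT untreated replicates 2 and 3, WT OKN007 replicate 6, G93A untreated replicate 10 and G93A OKN007 replicates 13, 15 and 16. The 6 other genes kept their calls with this covariate. With it, untreated mice gave 2.07 for Tgfb1, 0.73 for Tgfb2, 1.49 for Tgfbr1, 1.40 for Tgfbr2, 1.03 for Smad3 and 1.04 for Tgfbi. At 155 days the score ran from 1.64 to 2.86 in untreated WT mice and from 0.321 to 1.68 in untreated G93A mice. Under OKN007 it ran from 2.42 to 2.76 in WT and from 0.702 to 2.07 in G93A mice. With so little overlap, the covariate cannot separate cord position from genotype.

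**Figure D2:**
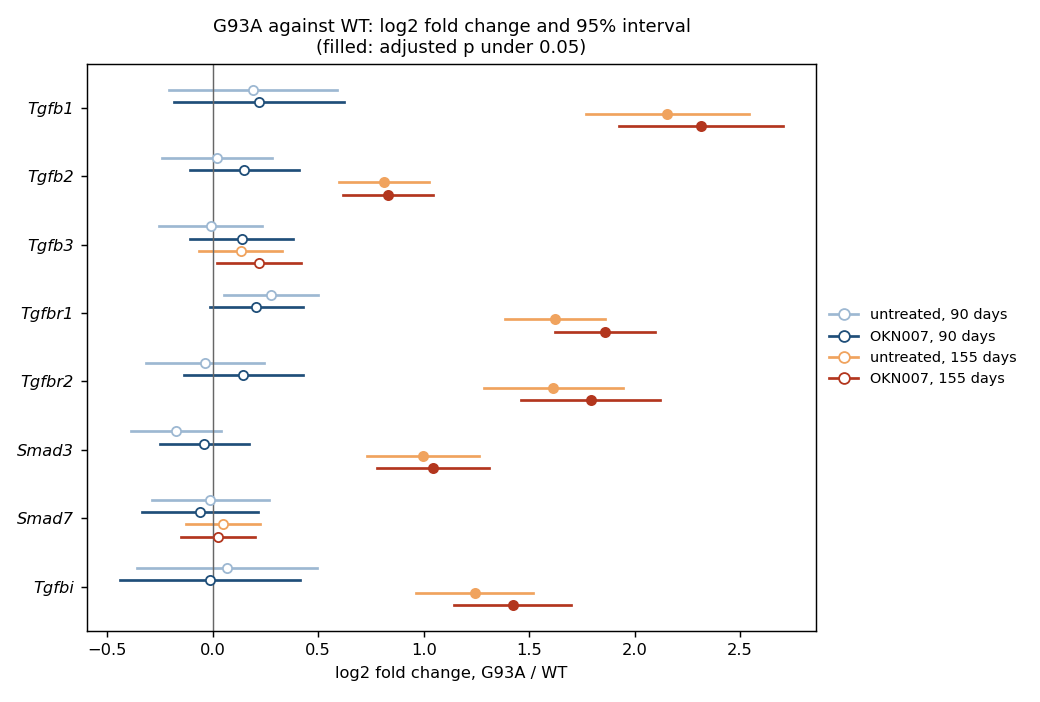
log2 fold change of G93A against WT mice for the 8 genes, with its 95% interval, in untreated and OKN007 mice at 90 days and 155 days; filled points have an adjusted p under 0.05 (n = 4 mice a group). The filled points all belong to 155 days and to the 6 genes that rose, from 0.81 for Tgfb2 to 2.31 for Tgfb1.

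At 90 days none of the 8 genes was called between genotypes, in untreated or in OKN007 mice, where 0 of 18899 genes tested (0%) were called in either comparison and 5.96% and 3.95% of genes had an unadjusted p under 0.05 beside 1 and 0 of the 8. Every one of the 8 genes had overlapping groups. Tgfbr1 had the smallest p: it was at 16.1, 20.2, 16.9 and 17.6 CPM in WT untreated mice and at 20.6, 17.8, 24.5 and 22.5 CPM in G93A untreated mice. Its log2 fold change was 0.28 (unadjusted p = 0.0185, adjusted p = 0.822), and averaged over both treatments it was 0.24 (SE 0.075, adjusted p = 0.431), in a comparison that called 0.0265% of genes. Tgfb1, which rose most at the later age, was at 4.57, 5.66, 4.43 and 5.71 CPM in WT untreated mice and at 5.11, 6.69, 7.09 and 4.37 CPM in G93A untreated mice. Its difference of 0.19 on the log2 scale had a 95% interval from -0.21 to 0.59 (adjusted p = 0.922), so that a change as large as that at 155 days lies outside the interval.

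Whether the genotype change itself differed between ages was tested in the fit of all 32 mice. The genotype change was larger at 155 days than at 90 days for 6 of the 8 genes in untreated mice, where 21.2% of all genes tested differed in either direction, and for the same 6 under OKN007, where 23.0% did. The differences in untreated mice were 1.96 for Tgfb1, 1.64 for Tgfbr2, 1.34 for Tgfbr1, 1.16 for Smad3, 1.16 for Tgfbi and 0.77 for Tgfb2 on the log2 scale. That of Tgfbi was 0.797 without the WT mouse with high Schwann cell markers (adjusted p = 0.00264) and 1.26 without the G93A mouse (adjusted p = 0.000923), and was called in both fits. Those of Tgfb3 (adjusted p = 0.615) and Smad7 (adjusted p = 0.886) did not pass. Each age was a separate set of mice, and age cannot be told apart from any batch that went with it.

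Levels were also compared between ages within a genotype. In G93A untreated mice 7 of the 8 genes differed between 155 and 90 days, 6 of them higher, where 33.7% of all genes tested were called in either direction. Tgfb1 rose by 1.90, Tgfbr2 by 1.86, Tgfbr1 by 1.62, Smad3 by 1.18, Tgfb2 by 0.55 and Tgfbi by 0.49 on the log2 scale, and Tgfb3 fell by 0.31 (adjusted p = 0.0317). The calls of Tgfb3 and Tgfbi rested on single mice: Tgfb3 lost its call without G93A untreated replicates 9, 11 or 12 of 90 days or 11 or 12 of 155 days (adjusted p up to 0.117), and Tgfbi without replicates 9 or 12 of 90 days or 10 or 11 of 155 days (up to 0.121) and with the caudal Hox score in the fit (0.172). In WT untreated mice 2 of the 8 genes were called, a share close to the 24.9% of all genes called in either direction. Both were lower at 155 days, where 9.61% of all genes were called lower. Tgfb3 was at 32.1, 31.1, 38.6 and 38.7 CPM at 90 days and at 26.3, 25.7, 24.1 and 28.2 CPM at 155 days, so that every younger mouse was above every older one; it fell by 0.43 (SE 0.11, adjusted p = 0.00511). Tgfbi was at 7.81, 9.26, 19.1 and 9.55 CPM at 90 days and at 8.46, 6.55, 6.49 and 7.18 CPM at 155 days. The highest Tgfbi value, in replicate 3, belongs to the mouse with the Schwann cell markers named above; Tgfbi fell by 0.67 with it (adjusted p = 0.00769) and by 0.30 without it (adjusted p = 0.125).

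None of the 8 genes was called between OKN007 and untreated mice, at either age or in either genotype, and 0 of all genes tested (0%) were called in any of the 4 comparisons. At an unadjusted p under 0.05 stood 1 of the 8 genes in WT mice at 90 days, where 4.07% of all genes did, and 1 in G93A mice at 90 days, where 5.56% did; at 155 days there were 0 of 8 in both genotypes, where 2.94% in WT and 4.04% in G93A mice did. That gene was Tgfbr1 in both cases. It was at 16.1, 20.2, 16.9 and 17.6 CPM in untreated and at 22.2, 22.4, 19.6 and 23.7 CPM in OKN007 WT mice at 90 days, with overlapping groups, a log2 fold change of 0.31 (unadjusted p = 0.00873, adjusted p = 0.993).

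In G93A mice Tgfbr1 was 0.24 higher under OKN007 at 90 days (95% interval 0.023 to 0.46, adjusted p = 0.837) and 0.23 higher at 155 days (95% interval -0.00075 to 0.45, adjusted p = 0.9996), and neither passed. For Tgfb1 in G93A mice at 155 days, the difference between OKN007 and untreated mice was -0.022, with a 95% interval from -0.38 to 0.33, which leaves room for a change in either direction of a size far below the genotype difference of 2.16. The intervals of the other genes in that comparison, on the log2 scale, ran from -0.15 to 0.27 for Tgfb2, from -0.22 to 0.17 for Tgfb3, from -0.22 to 0.41 for Tgfbr2, from -0.21 to 0.30 for Smad3, from -0.20 to 0.15 for Smad7 and from -0.13 to 0.40 for Tgfbi. The genotype by treatment interaction, which asks whether OKN007 acted differently in G93A and WT mice, called 0 of 8 genes at both ages (0 of all genes tested). At an unadjusted p under 0.05 it held 0 of the 8 genes at either age, beside 2.81% of all genes at 90 days and 2.34% at 155 days. A p that misses the threshold does not show that treated and untreated mice were alike.

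**Figure D3:**
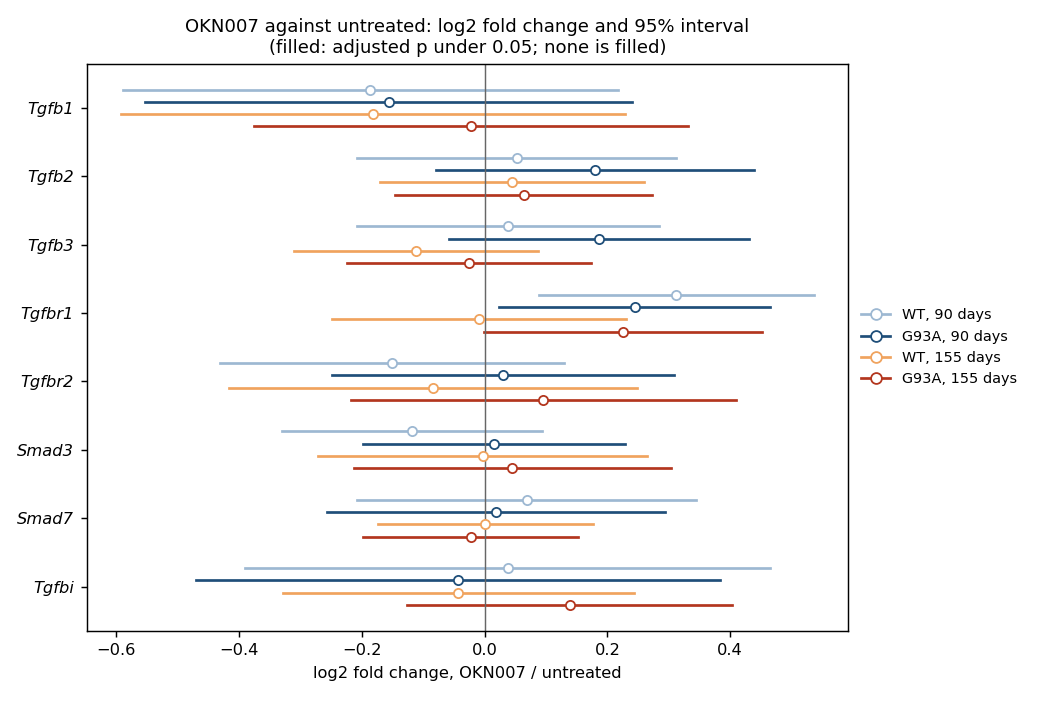
log2 fold change of OKN007 against untreated mice for the 8 genes, with its 95% interval, in WT and G93A mice at both ages (n = 4 mice a group); no point has an adjusted p under 0.05. The intervals of all genes but Tgfbr1 span 0 in each comparison, and Tgfbr1 at 90 days lies above 0 in both genotypes before adjustment.

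Levels of different genes were compared per length, as RPKM on the annotated exon bases of each gene. In WT untreated mice at 155 days, Smad7 stood highest at 9.09 ± 0.976 RPKM (SD, n = 4) and Tgfb3 next at 7.70 ± 0.495, with ranges that did not meet. Tgfb2 followed at 4.05 ± 0.434 and Tgfbr1 at 3.28 ± 0.463, Smad3 at 3.07 ± 0.189, Tgfbr2 at 2.45 ± 0.556 and Tgfbi at 1.90 ± 0.242, where each gene's range overlapped that of its neighbour. Tgfb1 was lowest at 0.973 ± 0.299 RPKM, apart from Tgfbi, and was the lowest of the 8 genes in all 24 mice outside the G93A groups of 155 days.

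The order was different in G93A mice of 155 days. Tgfbr1 was highest in 7 of these 8 mice and in 0 of the 24 others, at 10.04 ± 1.66 RPKM in untreated mice (SD, n = 4). Smad7 (9.31 ± 0.6246), Tgfb3 (8.37 ± 1.08), Tgfbr2 (7.44 ± 1.26), Tgfb2 (7.04 ± 0.983) and Smad3 (6.06 ± 1.12) followed in RPKM, each overlapping its neighbour. Tgfbi (4.46 ± 0.637) and Tgfb1 (4.28 ± 1.10) came last and overlapped with each other. These orders are descriptions of the same levels that the genotype tests used.

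The shares of the 3 ligands in their summed RNA were also compared. As a share of the summed RPKM of the 3 ligands, Tgfb1 made up 7.62% ± 2.15 in WT untreated and 21.5% ± 3.45 in G93A untreated mice at 155 days (SD, n = 4), and Tgfb3 60.6% ± 3.05 and 42.7% ± 4.33. Neither pair of ranges overlapped, and the Tgfb2 shares, 31.8% ± 3.01 and 35.8% ± 2.63, did overlap. The differences were 13.9 percentage points for Tgfb1 and -17.9 for Tgfb3. Each had an exact permutation p of 0.0286 (two-sided), the smallest that 70 splits of 4 against 4 mice can give. The adjusted p was 0.0857 over 12 such tests, which does not pass. It could pass only if tests at 90 days also reached this smallest p, so the miss decides nothing. Under OKN007 the shares of Tgfb1 were 7.02% ± 0.664 and 21.3% ± 1.02, and at 90 days they lay between means of 5.42% and 7.20% in all 4 groups. This share was chosen after the values had been seen, and since shares sum to a whole, a lower share of Tgfb3 says nothing of its level, which did not fall.

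**Figure D4:**
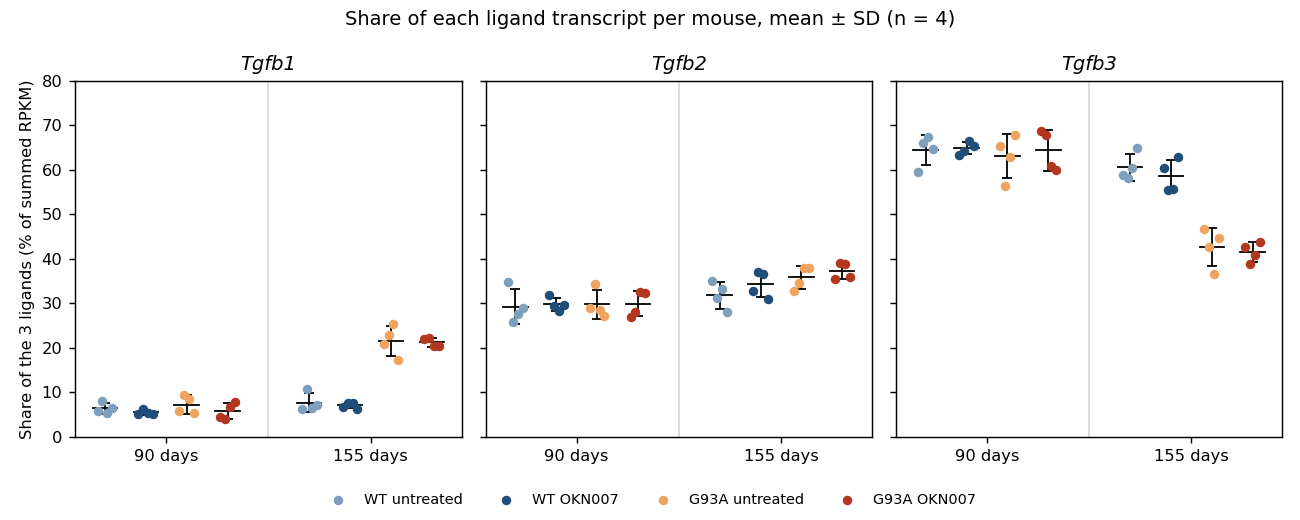
Share of Tgfb1, Tgfb2 and Tgfb3 in the summed RPKM of the 3 ligands, in percent, in every mouse by age and group, with group mean ± SD (n = 4). Both G93A groups at 155 days sit higher in Tgfb1, with means of 21.5% and 21.3% against 7.62% and 7.02% in WT, and lower in Tgfb3.

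Of the other genes of the pathway, in lists set by their role, 62 of 64 were tested at 155 days. The lists, too, were chosen with earlier results of these data known. In untreated mice 31 were higher and 5 lower in G93A mice, where 21.3% of all genes were called higher and 18.2% lower, with a median log2 fold change of 0.34. Of 14 tested genes of latency and activation, 9 were higher and 1 lower; the 3 with the smallest adjusted p were Itgb5 (log2 fold change 1.75) and Itgb1 (0.75), chains of integrins that can release the ligand, and Bmp1 (1.35), a protease that frees it from its binding proteins. The leucine-rich protein gene Nrros, which anchors latent Tgfb1 on microglia, rose by 1.49 (adjusted p = 0.0125), and was singled out after its value was seen; it was not called without G93A untreated replicate 11 (1.20, adjusted p = 0.0507).

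Among 6 other receptors and co-receptors, 3 were higher and 1 lower, where 21.3% of all genes were called higher and 18.2% lower. Cd109, a co-receptor that dampens signalling, stood far above the rest at a log2 fold change of 4.09 (adjusted p = 5.89e-09), from 3.52 ± 0.191 CPM in WT to 59.5 ± 35.9 CPM in G93A untreated mice (SD, n = 4). Tgfbr3, the betaglycan that presents ligand, rose by 0.30 and Acvr1b, an activin receptor, fell by 0.32. With the caudal Hox score in the fit Acvr1b was not called (-0.22, adjusted p = 0.144), and Tgfbr3 was not called when only the groups compared entered the fit (adjusted p = 0.0551). Of 6 tested Smads and partners other than Smad3 and Smad7, 0 were higher and 1 lower, Zfyve9, the anchor protein that brings Smads to the receptor (-0.53, adjusted p = 0.00452), whose call was lost with the caudal Hox score (-0.53, adjusted p = 0.0513). Smad2 and Smad4, the partners of Smad3, were at -0.029 (adjusted p = 0.811) and 0.16 (adjusted p = 0.0786), so that of Smad2, Smad3 and Smad4 only Smad3 was called.

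Of 16 inhibitors and turnover genes, 5 were higher and 2 lower in untreated G93A mice. Over all genes tested in that comparison, 21.3% were called higher and 18.2% lower. Fmod, a matrix proteoglycan that binds TGF-beta, was at a log2 fold change of 4.04 (4.99 ± 0.698 to 81.8 ± 28.5 CPM; SD, n = 4), and the co-repressors Tgif1 and Ski were at 2.22 and 0.54. In the same comparison 14 of the 20 other target genes were higher and 0 lower. Among them were the intermediate filament Vim (3.87), the matrix protein Postn (3.76) and fibronectin Fn1 (1.84). Several of these genes are also raised by other signals and in other cells, and a list of targets is no measure of the pathway's activity. Under OKN007, 36 were higher and 8 lower of the 62, where 23.3% of all genes were called higher and 18.2% lower. At 90 days, averaged over both treatments, 0 of 62 were called, where 0.0265% of all genes were. In the OKN007 comparisons and interactions at either age 0 of 62 were called.

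Leaving out each mouse in turn gave 28 to 32 genes higher and 3 to 7 lower of the tested pathway genes, and with the caudal Hox score 29 were higher and 1 lower. Among the target genes, 10 to 15 were higher and 0 to 2 lower when single mice were left out; 2 were lower without G93A untreated replicate 12, and 2 with no filter on low counts.

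**Figure D5:**
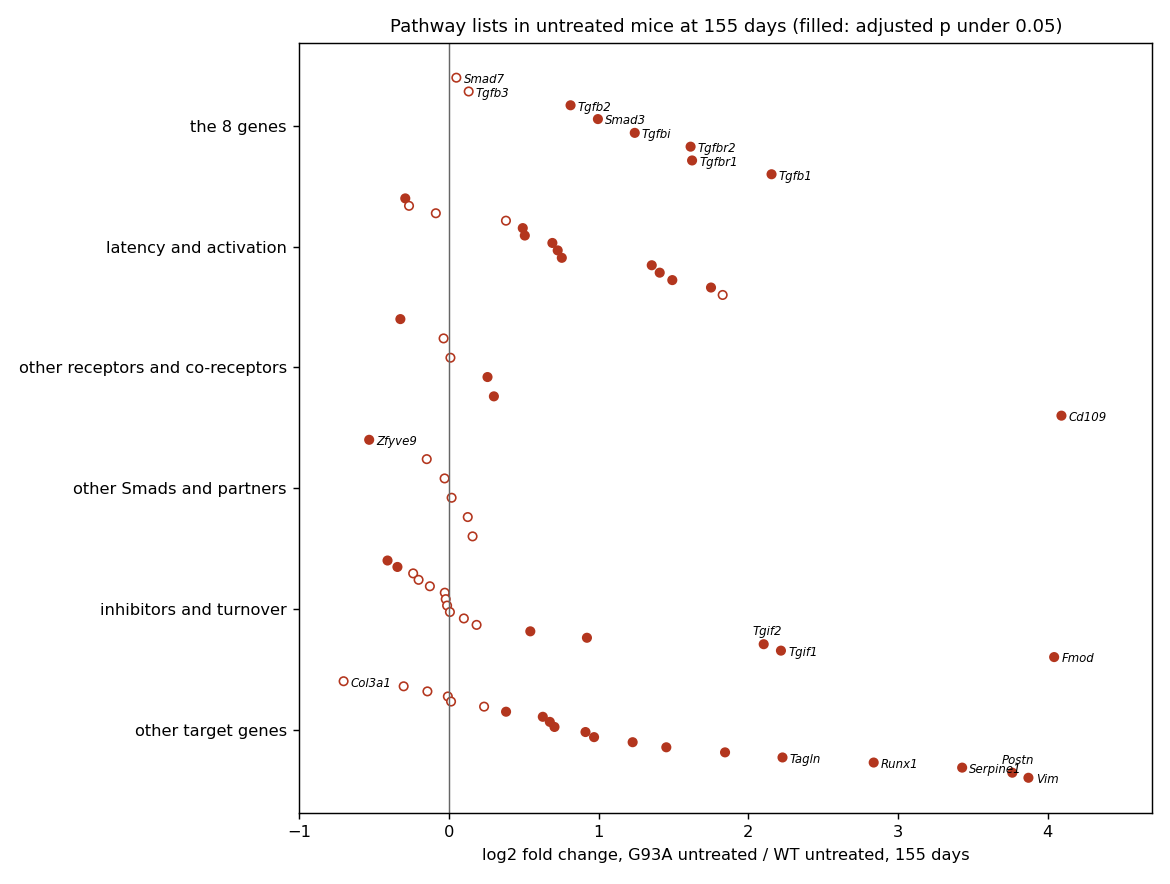
log2 fold change of G93A untreated against WT untreated mice at 155 days for the 8 genes and for the other pathway genes in 5 lists, each point a gene; filled points have an adjusted p under 0.05. Cd109 and Fmod, at 4.09 and 4.04, lie farthest to the right, and the other Smads and partners lie closest to 0.

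Markers of cell types moved with the rise at 155 days. In untreated mice of that age 21.3% of all genes tested were called higher and 18.2% lower. All 9 microglia markers were higher in untreated G93A mice, with a median log2 fold change of 2.27, and Aif1, the leading one, at 2.70; their summed level ranged from 347 to 437 CPM in WT and from 1565 to 2877 CPM in G93A mice. The 10 markers of disease-associated microglia had a median of 4.31. Of 8 astrocyte markers, 6 were higher with a median of 0.43 (Gfap 2.401), whereas all 7 neuron markers (Rbfox3 -0.55) and 6 of 7 motor neuron markers (Chat -0.41) were lower. Of 8 border macrophage and monocyte markers, 5 were tested and 1 was called, with Mrc1 at 0.52 (adjusted p = 0.0748) and a summed level of 3.90 to 4.59 CPM in WT and 5.05 to 7.79 CPM in G93A mice.

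In the remaining lists 1 of 6 oligodendrocyte markers, 0 of 7 endothelial and 1 of 4 tested Schwann cell markers were called. Of 8 mural and fibroblast markers 3 were higher and 1 lower. Over all genes tested 39.5% were called in either direction in this comparison. Of 6 tested blood and liver markers 0 were called at an adjusted p under 0.05 in edgeR's test. An unadjusted p under 0.05 was found for 3 of these 6 markers, and for 47.2% of all genes tested. Of 10 tested caudal Hox genes 6 were lower, and their score averaged 2.26 ± 0.5259 in WT and 0.9754 ± 0.749 in G93A untreated mice (SD, n = 4, mean log2(CPM + 1)). At 90 days the summed microglia markers ranged from 404 to 464 CPM in WT and from 417 to 663 CPM in G93A untreated mice. In bulk RNA more cells of a type and more RNA per cell cannot be told apart, and the part of these markers in the rise of the 6 genes was not tested.

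The genes whose levels ran most like those of 5 of the 6 genes that rose were found over all 32 mice among 19829 genes, by the root mean square distance of log2(CPM + 1) after each gene was centred. For Tgfb1 they were H2-K1, Parvg and Gusb, at distances from 0.155 to 0.158, against a median distance of 0.884 over all genes. For Tgfbr2 they were Mylip, Axl and Man2b1 (0.191 to 0.201). Smad3 ran most like Ndst1, Add3 and Fnip2 (0.130 to 0.144), Tgfb2 like Ginm1, Dtx4 and Tab2 (0.115 to 0.129) and Tgfbi like Fam129b, Syngr2 and Atf5 (0.204 to 0.206). The likeness is a description that follows the same difference between G93A mice of 155 days and the rest, and says nothing of shared control.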

How the data were processed

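Spinal cord RNA of 32 mice was sequenced, 4 in each of 8 groups taken from the labels. The authors deposited raw gene counts, not normalized. The study's methods give Trimmomatic, STAR, HTSeq and GENCODE M10 on GRCm38, whereas the submitters' processing notes list STAR, featureCounts, edgeR, GRCm39, mm39 and hg38. Of 42524 gene IDs, 1321 are absent from GENCODE M21, so the annotation behind the counts was not settled. The only coordinates given are those of the promoters, from RefSeq on GRCm38.p6. Symbols came from GENCODE M21 (96.9% matched); exon lengths came from it too. The labels say 90 days for the earlier age; the study's text gives a slightly later age. Total counts ranged from 19701722 to 30138257. Numbered samples were taken as separate mice (otherwise p-values measure only the spread between samples), and no pair of libraries within a group agreed within sampling noise (smallest chi-square per gene 3.80).

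Counts were fitted with edgeR 4.0.16 in R 4.3.3 (filterByExpr, TMM, glmQLFit, glmQLFTest), the 16 mice of an age together, and all 32 for age differences, with Benjamini-Hochberg adjustment over all genes; the procedure was tested on simulated data. Alternatives were DESeq2 1.42.0, limma-voom 3.58.1, edgeR's likelihood ratio test, RLE factors, other filters, samples and thresholds, a caudal Hox score, 1 surrogate variable (sva 3.50.0), the sample number as a block, and leaving out each mouse. The 8 genes and all lists were chosen with earlier results of these data known. Named pathway genes are the 3 with the smallest adjusted p per list, with Nrros, Smad2 and Smad4 added after values were seen; markers named lead their list, and likeness names 3 genes for each gene that rose, with that of Tgfbr1 not reported here.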

Additional observations from a re-analysis of the deposited data

Results flagged for a closer look

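In 2 of 64 groups of 4 mice a single mouse lay far from the others, where chance gives about 3.2 (1 group in 20). Tgfbi was at 19.1 CPM in WT untreated replicate 3 at 90 days, with the next mouse at 9.55 CPM; Schwann cell markers summed to 1652 CPM in the same mouse, and their part in the value was not tested. Smad7 was at 51.3 CPM in WT untreated replicate 2 at 90 days, with the next mouse at 43.3 CPM.

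The genotype change differed between ages for 6 genes, by a test of the difference itself in all 32 mice. In untreated mice the change at 155 days exceeded that at 90 days by 1.96 for Tgfb1, 0.77 for Tgfb2, 1.34 for Tgfbr1, 1.64 for Tgfbr2, 1.16 for Smad3 and 1.16 for Tgfbi on the log2 scale; that of Tgfbi was 0.797 without WT untreated replicate 3 of 90 days (adjusted p = 0.00264). Under OKN007 the differences were 2.06 for Tgfb1, 0.65 for Tgfb2, 1.62 for Tgfbr1, 1.62 for Tgfbr2, 1.05 for Smad3 and 1.40 for Tgfbi. Age cannot be told apart from a batch that went with it.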

How the results depend on the processing

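The 6 genes called in G93A against WT mice at 155 days kept direction and call under every alternative run in both treatments, except that a log2 fold change of at least 1 dropped Tgfb2 (0.81 untreated, 0.83 under OKN007) and Smad3 in untreated mice (0.995), which left 4 and 5 genes. With that limit, 4 of 7 genes were called for age in G93A untreated mice and 0 of 2 in WT untreated mice. Leaving out single mice moved the latter count between 1 (without WT untreated 90 days replicate 3) and 4 (without WT untreated 90 days replicate 2, where Tgfb2 at -0.33 and Tgfbr1 at 0.35 were called too). No result reversed. The Tgfb3 call averaged over treatments at 155 days (adjusted p = 0.0341) had an adjusted p of 0.0556 by DESeq2, 0.0582 with RLE factors and 0.0651 with no filter on low counts. Comparisons at 90 days and of OKN007 called 0 of the 8 genes in each alternative run.

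Sample numbers recur at both ages but mark different animals. Over 16 numbers the deviations of same-numbered mice correlated between -0.222 and 0.260, with 3 over 0.1 and 3 best with their own number. These values cannot show that same-numbered mice shared nothing else. With the replicate block, which could be fitted for age comparisons only, the fall of Tgfb3 in G93A untreated mice was -0.30 (adjusted p = 0.0505).

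With 4 mice a group, precision is set by the spread between mice rather than by depth.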
